A study of Mus musculus with 8 samples.

Results

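Cathepsins are the proteases of the lysosome. Cystatins are a family of small proteins, many of which, but not all, bind and block those cathepsins that use a cysteine for catalysis. The genes described here were 6 proteases (Ctsl, Ctsb, Ctsh and Ctss, which are cysteine cathepsins, Ctsd, an aspartic cathepsin, and Tpp1, a serine tripeptidyl peptidase), the cystatin family members Cst3, Cst8 and Cst9, and Grn, which encodes progranulin. Members were all probe sets that the platform annotation gives to 1 of these 10 symbols. There were 14 such probe sets among 12488 on the array, for 9 of the 10 genes and of 8251 symbols in all, and the annotation used here lists none for Cst8. Ctsl, Cst9 and Tpp1 were chosen by their measured signal, which was higher in the double knockout, so every comparison that uses the double knockout arrays is a description for these 3 genes and carries no test.

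Testis RNA of 4 genotypes was hybridised to 8 MG_U74Av2 arrays (a mouse gene chip by Affymetrix), with 2 arrays a genotype. Wild type arrays came from Ku86(+/+);Terc(+/+) mice, Terc knockout arrays from Ku86(+/+);G3-Terc(-/-) mice, Ku86 knockout arrays from Ku86(-/-);Terc(+/+) mice and double knockout arrays from Ku86(-/-);G3-Terc(-/-) mice. G3 marks the third generation bred without Terc. Terc is the RNA that telomerase copies into telomere repeats, and Ku86 is the DNA end-binding protein encoded by Xrcc5. The age and strain of the mice are not given in the sources used here. Double knockout replicate 1 was a pool of 3 mice and wild type replicate 1 was a repeated hybridisation, per the scanner's text records, which call the material germ cells.

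Lysosomal proteases are made as inactive precursors, sorted to the lysosome and activated there by acid. Sertoli cells, the supporting cells of the seminiferous tubule, engulf the cytoplasm that spermatids shed and the germ cells that die, and they are known both to degrade this material in lysosomes and to secrete cathepsin L. Cystatin C, the product of Cst3, is an abundant secreted inhibitor of cysteine cathepsins, whereas Cst8 and Cst9 belong to a reproductive branch of the family, and Cst9 (testatin) is known from Sertoli cells of the developing testis. Progranulin is secreted or carried to the lysosome and cut into granulins.

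Several features of the arrays bear on the values below. The brighter of 2 Xrcc5 probe sets read 259 to 459 on the 4 arrays labelled Ku86 knockout or double knockout and 11.1 to 75.6 on the other 4, against the direction its label implies, so genotypes are named throughout by their labels. The other Xrcc5 probe set lay under the floor on all 8 arrays, at 0.4 to 3.4. Of 3 scan days, day 2 covered all 4 genotypes with 5 arrays, while the first replicates of the Ku86 and double knockouts were scanned on day 1 and that of wild type on day 3. The floor of 11.8 was reached by 15.6% to 26.0% of an array's probe sets. The summed signal of 8 spermatid markers (58744 to 73038 over all arrays) overlapped between the double knockout and wild type. That of 13 Sertoli cell markers did not overlap, at 3822 and 4397 in the double knockout against 2182 and 2273 in wild type. The sums of peritubular (given below), Leydig cell and spermatogonia markers were also higher without overlap, for Leydig cells by a small margin between the nearest arrays. Taken singly, 2 of 6 Leydig cell and 4 of 7 spermatogonia markers were higher without overlap and 0 were lower. Among all tested probe sets 23.2% were higher in this way. As the scanner's records call the material germ cells, whether whole testis was used is open. In RNA from a mix of cells, more cells of a type and more RNA per cell cannot be told apart.

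Sequences upstream of the annotated start are shown for the 3 genes picked for a higher signal in the double knockout, and for Ctsd, whose values did not follow theirs, to set the letters of both kinds of gene side by side. They are the 250 bases before the start, from RefSeq on GRCm38.p6, and lie at chr13:64370521-64370770 (minus strand), chr2:148834897-148835146 (plus strand), chr7:105752236-105752485 (minus strand) and chr7:142387828-142388077 (minus strand). All 250 bases of the Ctsl window and 47 of the Tpp1 window lie inside the outer bounds of the same RefSeq gene. The Ctsl window thus lies wholly inside the gene, past its outermost annotated start, and the Tpp1 window spans that start. For Ctsl the label promoter therefore names only the window taken, which is not upstream of the gene. Capitals mark CACGTG, the E-box core around which the CLEAR element of many lysosomal genes is built.
Ctsl promoter: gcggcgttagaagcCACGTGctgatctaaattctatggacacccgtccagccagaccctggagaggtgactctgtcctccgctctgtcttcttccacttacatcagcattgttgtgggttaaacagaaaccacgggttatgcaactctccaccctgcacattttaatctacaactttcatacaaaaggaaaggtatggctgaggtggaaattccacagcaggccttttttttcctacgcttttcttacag
Cst9 promoter: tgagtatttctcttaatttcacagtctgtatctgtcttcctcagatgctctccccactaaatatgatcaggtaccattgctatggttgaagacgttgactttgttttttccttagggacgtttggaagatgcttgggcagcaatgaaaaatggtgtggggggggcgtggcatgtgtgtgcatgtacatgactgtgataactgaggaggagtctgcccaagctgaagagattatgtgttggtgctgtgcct
Tpp1 promoter: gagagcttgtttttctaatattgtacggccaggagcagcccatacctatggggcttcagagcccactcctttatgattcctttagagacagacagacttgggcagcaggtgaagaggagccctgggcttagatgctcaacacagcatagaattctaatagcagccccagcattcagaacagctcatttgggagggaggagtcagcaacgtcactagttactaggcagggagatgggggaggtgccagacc
Ctsd promoter: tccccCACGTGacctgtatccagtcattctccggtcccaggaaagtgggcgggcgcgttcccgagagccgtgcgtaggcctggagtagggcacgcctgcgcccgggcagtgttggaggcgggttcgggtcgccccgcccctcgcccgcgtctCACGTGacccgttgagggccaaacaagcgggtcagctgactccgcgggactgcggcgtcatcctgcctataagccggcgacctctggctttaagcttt
CACGTG, which reads the same on both strands, was present once in the Ctsl window, starting 236 bases before the start, and at 2 places in the Ctsd window, starting 245 and 98 bases before it. Over all 32851 windows of this length, 6.02% held CACGTG. It was in 2 of the 8 member windows in the table, which are those of Ctsl, Ctsd, Ctss, Cst3, Cst8, Cst9, Tpp1 and Grn. The Ctsl match lies inside the gene, past its outermost annotated start. A match describes the letters and not a site in use. On chromosome 2, Cst8, Cst9 and Cst3 lie in that order within a run of cystatin genes, with Cst13 between Cst8 and Cst9 and Cstdc2 between Cst9 and Cst3.

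Ctsl, cathepsin L, was picked for a higher signal in the double knockout, so its separation there is a description. Its signal, in arbitrary intensity units, was 184 and 199.6 on the wild type arrays, 412 and 191 on the Terc knockout arrays, 194.5 and 485 on the Ku86 knockout arrays, and 779 and 602 on the double knockout arrays (replicate 1 then replicate 2 in each case). Both double knockout arrays lay above the other 6, and each single knockout had 1 array near wild type and 1 well above it. The mean was 690 ± 125 in the double knockout and 192 ± 11.2 in wild type (SD, n = 2 each), a 3.58-fold difference of geometric means or 1.84 on the log2 scale. It was 1.59 within scan day 2, which holds replicate 2 of every genotype and also replicate 1 of the Terc knockout. Against the Ku86 knockout the difference was 1.16, and it was 0.313 within scan day 2, where Ku86 knockout replicate 2 was the higher of its pair. Against the Terc knockout it was 1.29, and it ranged from 0.734 without Terc knockout replicate 2 to 1.84 without Terc knockout replicate 1.

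Neither single knockout was distinguishable from wild type for Ctsl. The log2 difference was 0.55 ± 0.422 (SE, limma adjusted p = 0.722) in the Terc knockout and 0.68 ± 0.422 (SE, adjusted p = 0.802) in the Ku86 knockout, which was 1.28 within scan day 2, with 2 arrays a group and p adjusted by Benjamini-Hochberg over 7282 probe sets. Without Terc knockout replicate 1 the Terc difference was -0.0014, without Terc knockout replicate 2 it was 1.10, and without Ku86 knockout replicate 2 the Ku86 difference was 0.0225. These comparisons share the wild type arrays with the one that picked the gene. Between the arrays labelled Ku86 knockout and those labelled Terc knockout, which the choice may also have weighed, the Ctsl difference was 0.13, and it ran from -0.53 to 0.79 with single arrays left out.

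Cst9, testatin, followed the same order of arrays at the top as Ctsl. Its signal was 302 and 280.0 in wild type, 421 and 301 in the Terc knockout, 325 and 477 in the Ku86 knockout, and 885 and 624 in the double knockout. The double knockout arrays again lay above the other 6, with Ku86 knockout replicate 2 and Terc knockout replicate 1 next below. The double knockout mean of 755 ± 184 stood against 291 ± 15.6 in wild type (SD, n = 2 each), a 2.56-fold difference of geometric means or 1.35 on the log2 scale, and 1.16 within scan day 2. Against the Ku86 knockout the difference was 0.92 overall and 0.389 within scan day 2, and against the Terc knockout it was 1.06 and 0.811. In the Ku86 knockout both arrays exceeded both wild type arrays, as for 24.4% of all tested probe sets. The log2 difference was 0.44 ± 0.275 (SE, limma adjusted p = 0.802), and it was 0.16 without Ku86 knockout replicate 2 and 0.768 within scan day 2. In the Terc knockout the difference was 0.29 ± 0.275 (SE, limma adjusted p = 0.775), with overlapping arrays, and it turned to -0.0425 after median centring of each array. Both single knockout comparisons share the wild type arrays with the one that picked Cst9.

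Tpp1, the lysosomal tripeptidyl peptidase that is lost in a childhood form of neuronal ceroid lipofuscinosis, was dim everywhere but in the double knockout. It read 16.4 and 40.9 in wild type, 45.3 and 14.2 in the Terc knockout, 30.2 and 23.0 in the Ku86 knockout, and 113 and 161 in the double knockout. The lowest double knockout array was above the highest of the other 6, and those 6 overlapped in every pairing. Its mean of 137 ± 33.8 in the double knockout and 28.7 ± 17.3 in wild type (SD, n = 2 each) gave a 5.22-fold difference of geometric means, or 2.38 on the log2 scale, and 1.98 within scan day 2. The spread inside the dim groups was wide, with a 2.49-fold gap between the wild type arrays and 3.19-fold between the Terc knockout arrays, so the difference from wild type ranged from 1.72 without wild type replicate 1 to 3.04 without wild type replicate 2. Tpp1 passed the filter on low values only through the double knockout: its typical signal without those arrays was 25.9, under the limit of 38.1. The single knockouts are therefore described without a test: their means were 29.8 ± 21.99 (Terc) and 26.6 ± 5.09 (Ku86) (SD, n = 2 each), and the sign of their small differences from wild type turned with the setting.

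**Figure D1:**
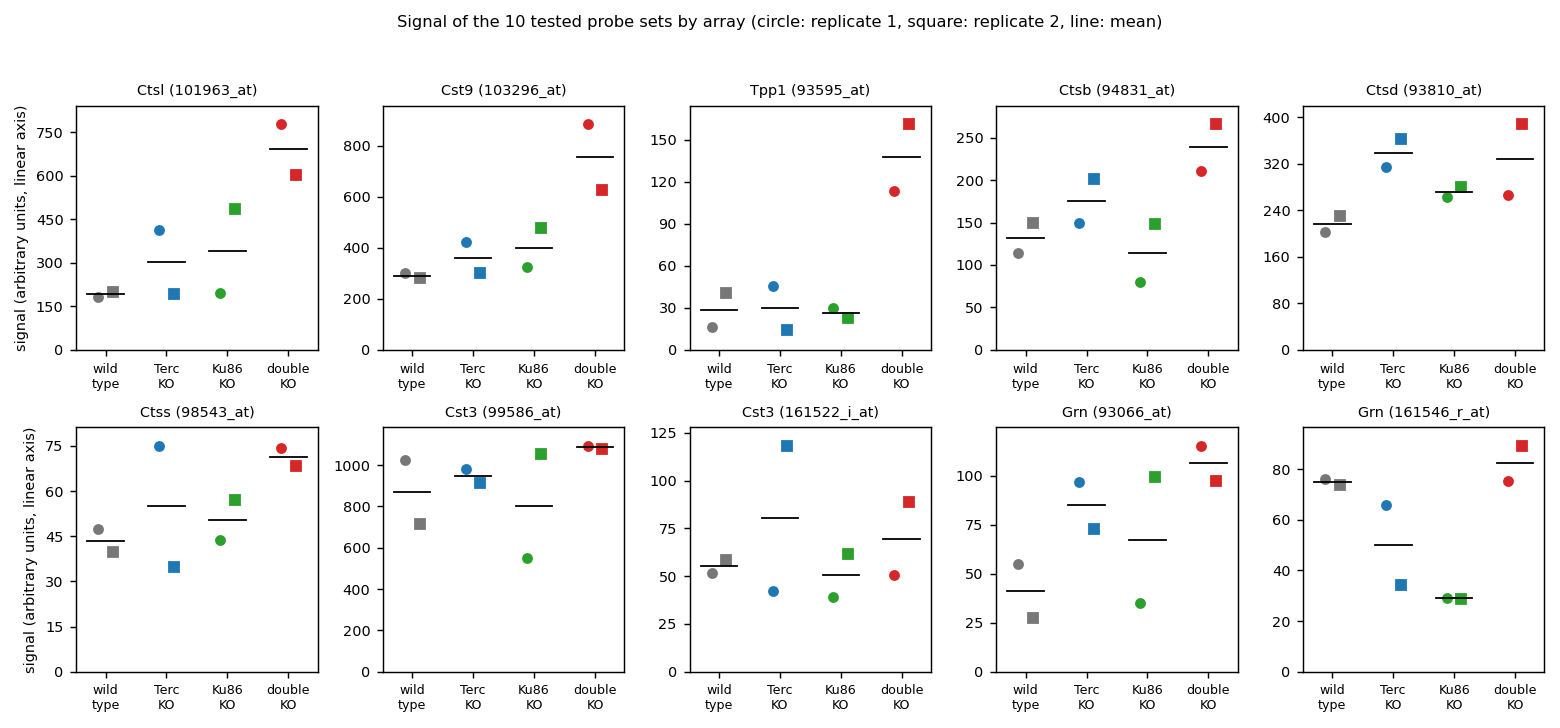
Signal in arbitrary units (linear axis from 0, a scale of its own in each panel) of the 10 member probe sets that were tested, by genotype, with a circle for replicate 1, a square for replicate 2 and a line at the mean of the 2 arrays. Ctsl, Cst9 and Tpp1, which were picked for a higher signal in the double knockout, have both double knockout arrays above the other 6. So do Ctsb and the brighter Cst3 probe set, by smaller margins (211 against 202 and 1080 against 1053 at the nearest). The share of all tested probe sets with this split was not counted. The 2 Grn probe sets order the genotypes differently.

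The other cathepsins were not picked for their values. Ctsb, cathepsin B, has 4 probe sets, of which 1 was tested, and it read 114 and 149.5 in wild type, 149.8 and 202 in the Terc knockout, 79.7 and 148 in the Ku86 knockout, and 211 and 266 in the double knockout. The double knockout arrays were the highest of the 8, and every array without Terc lay above every array with it, although Terc knockout replicate 1 and wild type replicate 2 were nearly equal. Such a split, higher without Terc and without overlap, was found for 1.55% of all tested probe sets. The double knockout difference from wild type was 0.86 ± 0.342 on the log2 scale (SE, limma adjusted p = 0.498), with a 95% interval from 0.11 to 1.61. The 4 arrays without Terc averaged 207 ± 47.7 and the 4 with it 123 ± 33.1 (SD, n = 4 each), with an exact two-sided permutation p of 0.0286 over 70 groupings, the smallest they can give. Adjusted over the 14 such tests it was 0.40, and the limma adjusted p of the same contrast was 0.904. The arrays labelled Ku86 knockout differed from wild type by -0.26 ± 0.342 (SE, limma adjusted p = 0.868), and by 0.182 without Ku86 knockout replicate 1. Of the untested Ctsb probe sets, 1 was at or under the floor on all 8 arrays and the other 2 on 5 of 8.

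Ctsd, the aspartic cathepsin, was higher on all 6 knockout arrays than on both wild type arrays. Its signal was 203 and 229.9 in wild type, 315 and 363 in the Terc knockout, 262 and 281 in the Ku86 knockout, and 267 and 389 in the double knockout. Here the double knockout overlapped both single knockouts, which sets Ctsd apart in order from the 3 picked genes. The log2 differences from wild type were 0.65 ± 0.253, 0.33 ± 0.253 and 0.58 ± 0.253 for the Terc, Ku86 and double knockouts (SE, limma adjusted p = 0.672, 0.818 and 0.562), and within scan day 2 they were 0.557, 0.289 and 0.758. After median centring of each array they were 0.313, 0.0959 and 0.310, and without double knockout replicate 2 the double knockout difference was 0.306. By Terc genotype the means were 333 ± 53.9 without Terc and 244 ± 34.5 with it (SD, n = 4 each, exact permutation p = 0.0571 and 0.40 after adjustment over the 14 tests). No Ctsd comparison passed.

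Ctss, the cathepsin of antigen-presenting cells, was dim and read 47.4 and 39.7 in wild type, 75.1 and 34.8 in the Terc knockout, 43.7 and 57.0 in the Ku86 knockout, and 74.2 and 68.3 in the double knockout. The double knockout arrays lay above wild type but not above Terc knockout replicate 1, and the log2 difference from wild type was 0.71 ± 0.491 (SE, limma adjusted p = 0.759). Macrophage markers were measured beside it because this gene is known from macrophages: the summed signal of 14 of them ran from 2770 to 3631 in wild type and from 2798 to 3218 in the double knockout. The largest part of that sum was Aif1, at 1348 to 2732 over the 8 arrays. Of the 14 markers, 3 were higher in the double knockout than in wild type without overlap (Lyz2, Fcgr3 and Mrc1) and 0 were lower, and all 3 were too dim to be tested. Over all tested probe sets 23.2% were higher in this way, so the count of 3 lies near the background. Lyz2 read 12.5 and 11.5 in wild type and 40.1 and 26.9 in the double knockout, whereas Adgre1, the F4/80 antigen, read at most 23.8 on any array. The part of macrophage content in the values of Ctss was not tested. Ctsh, an aminopeptidase of the same family, stayed between 13.5 and 64.0 on the 8 arrays, with both extremes outside the double knockout, and was not tested because its mean lay under the limit of the filter.

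Cst3, cystatin C, was bright on 1 of its 2 probe sets. That probe set read 1023 and 713 in wild type, 983 and 911 in the Terc knockout, 548 and 1053 in the Ku86 knockout, and 1094 and 1080 in the double knockout. The double knockout arrays were the 2 highest, but by a margin far smaller than the gap between the Ku86 knockout arrays, and the log2 difference from wild type was 0.35 ± 0.286 (SE, limma adjusted p = 0.804, 95% interval from -0.28 to 0.97). It was 0.0882 without wild type replicate 2, 0.609 without wild type replicate 1, 0.0821 after median centring and 0.840 with scan day as a block. The dimmer one, which carries the maker's suffix _i, ran from 39.2 on Ku86 knockout replicate 1 to 118 on Terc knockout replicate 2. Its double knockout difference was 0.28 ± 0.542 (SE, limma adjusted p = 0.943) and turned to -0.12 without double knockout replicate 2. Across the 8 arrays the 2 Cst3 probe sets correlated at r = 0.342 (Pearson, log2 signal), a description over arrays that share genotypes and scan days. No Cst3 comparison passed, and the intervals are wide.

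Grn was read by 2 probe sets that did not order the genotypes alike. The first read 54.8 and 27.5 in wild type, 97.1 and 72.9 in the Terc knockout, 35.2 and 99.5 in the Ku86 knockout, and 116 and 97.4 in the double knockout. All 4 arrays without Terc lay above both wild type arrays, and Ku86 knockout replicate 2 lay among them. Its log2 differences from wild type were 1.12 ± 0.530 in the Terc knockout, 0.61 ± 0.530 in the Ku86 knockout and 1.45 ± 0.530 in the double knockout (SE, limma adjusted p = 0.672, 0.827 and 0.491). Without Ku86 knockout replicate 2 the Ku86 difference turned to -0.14. Without wild type replicate 2 the Terc and double knockout differences were 0.619 and 0.953, and with scan day as a block they were 1.61 and 2.26.

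The second Grn probe set, which carries the maker's suffix _r, read 76.1 and 73.9 in wild type, 65.7 and 34.1 in the Terc knockout, 29.0 and 28.9 in the Ku86 knockout, and 75.2 and 89.3 in the double knockout. Both single knockouts lay below both wild type arrays and the double knockout lay at wild type level or above it, with groups that did not overlap between either single knockout and the double knockout (as for 15.4% of all tested probe sets, higher against the Terc knockout, and 15.5% against the Ku86 knockout). The log2 difference from wild type was -0.66 ± 0.464 in the Terc knockout and -1.37 ± 0.464 in the Ku86 knockout (SE, limma adjusted p = 0.703 and 0.802). In the double knockout it was 0.13 ± 0.464 (SE, limma adjusted p = 0.974), which turned to -0.0723 after quantile normalization and to -0.139 after median centring. The interaction, the double knockout beyond the sum of both single knockouts, was 2.17 ± 0.657 (SE, limma adjusted p = 0.875). The 2 Grn probe sets correlated at r = 0.116 over the 8 arrays (Pearson, log2 signal), and where each lies along the transcript was not used here.

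Counted together, 10 of the 14 member probe sets passed the filter on low values and were tested. Leaving out the 3 picked genes, limma called 0 of the other 7 at an adjusted p under 0.05 in any of the 9 comparisons. Over all 7282 probe sets the share called was 0.0275% in the Terc knockout and in the double knockout against wild type and 0.0412% in the Ku86 knockout against wild type. It was 0.0137% in the Ku86 knockout against the Terc knockout and in the Terc main effect (4 arrays without Terc against 4 with it), and 0% in the other 4 comparisons. With calls so rare over the whole table, the 0 among these 7 lies where the background lies.

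At an unadjusted p under 0.05, and leaving aside Ctsl, Cst9 and Tpp1, 3 of 7 probe sets were higher in the double knockout than in wild type (Ctsb, Ctsd and the first of Grn), where 6.34% of all tested probe sets were. In the Terc main effect it was the same 3 of 7, against 4.22% of all. Both contrasts contain the double knockout arrays, so these counts are not separate. As the members were chosen with earlier results of these data known, the counts here are descriptions and not tests of the group. In the Terc knockout against wild type 1 of 7 was higher (Ctsd, with 4.9% of all), in the Ku86 knockout against wild type 1 of 7 was lower (the second of Grn, with 2.18% of all), and in the Ku86 knockout against the Terc knockout 0 of 7 passed in either direction, with 2.39% of all. In the Ku86 main effect 0 of 7 passed, with 5.15% of all, and in the interaction 1 of 7 was higher (the second of Grn, with 1.62% of all). In the double knockout against the Ku86 knockout 2 of 7 were higher (Ctsb and the second of Grn, with 2.29% of all), and against the Terc knockout 0 of 7 passed in either direction, with 4.26% of all.

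Without the 3 picked genes, groups did not overlap, with the double knockout higher than wild type, for 5 of the 7 probe sets, against 23.2% of all tested probe sets. These 7 too were chosen with earlier results of these data known, so the counts and the median below are descriptions. In the Terc knockout against wild type 3 of 7 were higher without overlap and 1 was lower, against 25.5% and 12.2% of all. In the Ku86 knockout 1 of 7 was higher and 1 lower, against 24.4% and 13.7% of all, and 3 of 7 were lower in the Ku86 knockout than in the Terc knockout (Ctsb, Ctsd and the second of Grn), against 15.5% of all. The median log2 difference between the double knockout and wild type over the 7 was 0.577, and Cst3 and Grn each count with both of their probe sets, beside 0.0754 over all tested probe sets.

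**Figure D2:**
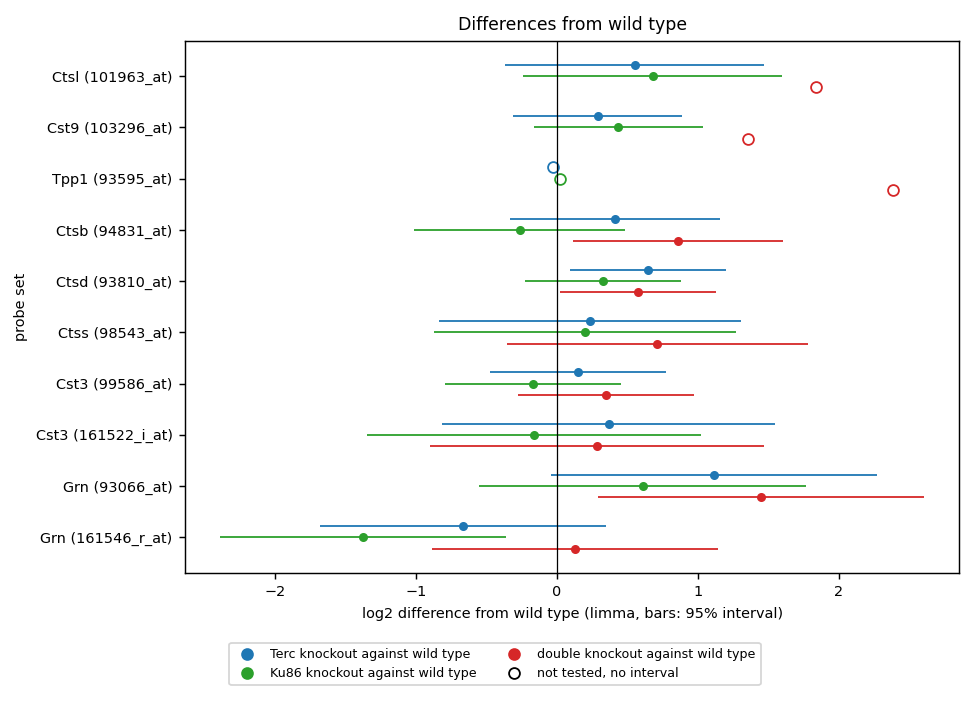
Log2 difference from wild type of the 10 tested probe sets in the Terc, Ku86 and double knockouts, with 95% intervals from limma (2 arrays a group, all 8 arrays in the fit). Open circles carry no interval because they served to choose Ctsl, Cst9 and Tpp1 or because Tpp1 passed the filter only through the double knockout, and of the intervals drawn 5 lie wholly on 1 side of 0.

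Differences between the replicates of a single knockout were as large as many differences between genotypes. Ctsl differed 2.15-fold between the Terc knockout arrays, a gap larger than or equal to that of 93.3% of tested probe sets, and 2.49-fold between the Ku86 knockout arrays, larger than or equal to that of 96.2%. In wild type and the double knockout its gaps were 1.09-fold and 1.29-fold. Ctss and the second probe set of Grn also differed widely between the Terc knockout arrays, 2.16-fold and 1.93-fold, with replicate 1 the higher, whereas the dimmer Cst3 probe set (2.79-fold) and Ctsb (1.35-fold) had replicate 2 the higher. The Terc knockout arrays were scanned on the same day.

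Genes with the pattern most like that of Ctsl were found by Pearson correlation of log2 signal over the 8 arrays with 6536 probe sets of 1 symbol. They were Clu (clusterin, a secreted chaperone abundant in Sertoli cells; r = 0.98 on both of its probe sets), Cpe (carboxypeptidase E; r = 0.976), Osbpl11 (an oxysterol-binding protein relative; r = 0.973) and Laptm4b (a lysosomal membrane protein; r = 0.971). For Cst9 they were Ddx17 (an RNA helicase; r = 0.975), Psmd1 (a proteasome subunit; r = 0.975), Cldn11 (claudin 11 of Sertoli cell tight junctions; r = 0.972), Clu (r = 0.968) and Ctsl itself (r = 0.963). Such values are the highest of 6536 over only 8 arrays. The brighter Clu probe set read 494 and 397 in wild type, 842 and 510.5 in the Terc knockout, 475 and 976 in the Ku86 knockout, and 1410 and 1063 in the double knockout. The single knockout arrays that were high for Ctsl were high for Clu too, which follows from the search for like patterns over these same arrays.

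Divided by their wild type mean, the double knockout arrays stood at 4.06 and 3.14 for Ctsl, 3.04 and 2.15 for Cst9, 3.17 and 2.39 for Clu and 3.92 and 3.03 for Cldn11. The sum of 13 Sertoli cell markers, which includes Clu and Cldn11 and none of the members, stood at 1.97 and 1.72. On Terc knockout replicate 2 that sum was 1.40 while Ctsl stood at 0.998 and Cst9 at 1.03, and on Ku86 knockout replicate 1 the sum was 1.09 with Ctsl at 1.01. Of the 13 markers 11 were higher in the double knockout than in wild type without overlap, as were 23.2% of all tested probe sets. The sum of 6 peritubular cell markers did not overlap either, at 839 and 1295 in the double knockout against 405 and 408 in wild type. The part of Sertoli or peritubular cell content in the values of Ctsl and Cst9 was not tested.

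**Figure D3:**
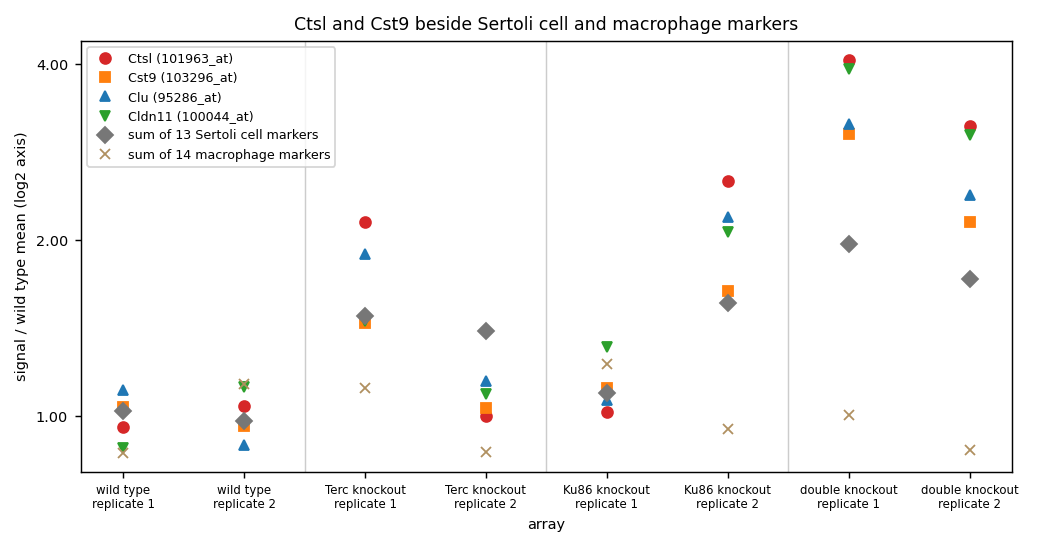
Signal of each array divided by the mean of the 2 wild type arrays (log2 axis) for Ctsl, Cst9, the Sertoli cell genes Clu and Cldn11, and the summed signals of 13 Sertoli cell and 14 macrophage markers. Terc knockout replicate 1, Ku86 knockout replicate 2 and both double knockout arrays are the high ones for Ctsl, Clu and Cst9. The macrophage sum, of which Aif1 is the largest part, stays between 0.865 and 1.23, and dim markers hardly weigh in it. Clu and Cldn11 are shown because their patterns over these same arrays were among the most like Ctsl or Cst9.

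Other genes of the lysosome were taken from 7 lists that together hold 134 genes, 86 of them on the array and 61 tested. In the double knockout against wild type limma called 0 of 61, with 4 higher and 1 lower at an unadjusted p under 0.05 (6.34% and 2.25% of all tested probe sets), and their median log2 difference was 0.143 beside 0.0754 for all tested probe sets. The Terc knockout had 0 called, 2 higher and 2 lower (4.9% and 2.16% of all), and the Ku86 knockout 0 called, 0 higher and 1 lower (3.72% and 2.18% of all), with medians of 0.172 and 0.113 beside 0.107 and 0.0954. Among cysteine cathepsins, 3 of 7 on the array were tested, and Ctsf, cathepsin F, read 118 and 71.6 in wild type and 227 and 225 in the double knockout (1.30 ± 0.457, SE, limma adjusted p = 0.469), with 188 on Ku86 knockout replicate 2. Lgmn, the asparaginyl protease legumain that activates several cathepsins, differed by 0.66 ± 0.442 (SE, limma adjusted p = 0.748), and Ctsk, cathepsin K, by 0.32 ± 0.349 (SE, limma adjusted p = 0.874). Ctse, the only tested gene of the aspartic and serine cathepsin list, differed by 0.50 ± 0.275 (SE, limma adjusted p = 0.661).

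Cstb, the intracellular inhibitor stefin B, read 229 and 219 in wild type and 323 and 299 in the double knockout, a difference of 0.47 ± 0.258 (SE, limma adjusted p = 0.661), and Kng1, kininogen, differed by 0.23 ± 0.581 (SE, limma adjusted p = 0.964), a difference that turned to -0.0336 after median centring. The 20 tested hydrolases and cofactors split 11 above and 9 below 0, with a median of 0.105. Their leading genes were Psap, the precursor of the saposins (0.57 ± 0.212, SE, limma adjusted p = 0.497), Arsa, arylsulfatase A (-0.47 ± 0.203, SE, limma adjusted p = 0.561), and Asah1, acid ceramidase (1.24 ± 0.574, SE, limma adjusted p = 0.582). Psap read 866 and 724 in wild type and 1160 and 1183 in the double knockout, and Arsa 2330 and 1591 against 1344 and 1443. The same list thus held leading genes on both sides of wild type.

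The 13 lysosomal membrane proteins had a median of 0.188, with Laptm4b at 0.49 ± 0.215, Lamp1 at 0.39 ± 0.192 and Lamp2 at 0.88 ± 0.495 (SE, limma adjusted p = 0.561, 0.620 and 0.680). Lamp1 and Lamp2 encode the most abundant proteins of the lysosomal membrane. The 13 genes of the vacuolar proton pump, which acidifies the lysosome, had a median of 0.106, with Atp6v1g1 at -0.50 ± 0.229, Atp6ap1 at 0.70 ± 0.427 and Atp6v1b2 at 0.19 ± 0.218, which turned to -0.0807 after median centring (SE, limma adjusted p = 0.582, 0.715 and 0.880). The 9 genes of sorting and transcription had a median of 0.0468. Rab7, the small GTPase of late endosomes, read 57.8 and 31.3 in wild type and 114 and 119.5 in the double knockout (1.46 ± 0.452, SE, limma adjusted p = 0.397), while Vps41 differed by 0.65 ± 0.325 and Igf2r, a receptor that sorts lysosomal enzymes, by 0.69 ± 0.544 (SE, limma adjusted p = 0.628 and 0.790). No gene of the 7 lists passed in this comparison.

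**Figure D4:**
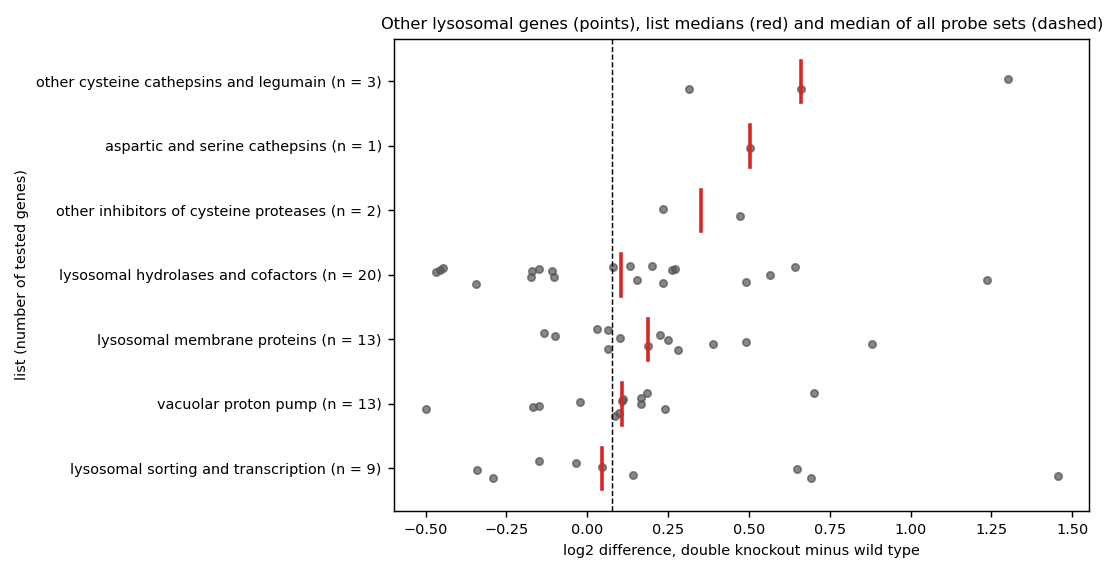
Log2 difference between the double knockout and wild type for each tested gene of 7 lysosomal lists (points, spread vertically for clarity), with the list's median in red and the median of all tested probe sets, 0.0754, as a dashed line. The cathepsin lists lie to the right of that line with 3 genes and 1 gene, and the 20 hydrolases and 13 proton pump genes straddle it.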

How the data were processed

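Mouse testis RNA was measured on 8 MG_U74Av2 arrays, 2 per genotype. The deposited values are linear probe set intensities. The authors had scaled each array, as the mean signal trimmed by 2% at both ends was 200.1 to 200.2 on all of them, and the software is not named in the labels or files. The number of arrays limits the precision, and the p-values measure the spread between these samples. Signals below 11.8, the 20th percentile over all arrays, were raised to that floor before log2. Controls (66) and probe sets with a mean log2 signal below that of 38.1, the 40th percentile (5140), were removed from the 12488, which left 7282 to test. Per the platform annotation, 10855 probe sets had 1 symbol, 396 several and 1237 none.

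Models were fitted to all 8 arrays with limma 3.58.1 in R 4.3.3 (lmFit, eBayes with a trend), with 1 mean per genotype, 9 contrasts and Benjamini-Hochberg adjustment over all tested probe sets. Tests were two-sided. A probe set's 4 arrays without a gene were set against the 4 with it by exact permutation. The pipeline was tested on simulated data. Named genes were every member probe set, Xrcc5, any called gene and the 3 with the largest moderated t in the double knockout of each list, and the 5 probe sets most like Ctsl and Cst9. Members and lists were chosen with earlier results of these data known. Alternatives covered scaling, floor, filter, variance trend, blocks and each array left out, and a fit of the scan day 2 arrays was chosen after seeing the data. The labels do not say that an experiment number marks a shared litter, day or batch, so the number was not taken as a pairing. Deviations of arrays with the same number correlated at 0.171 to 0.254 in the 3 pairs of genotypes with the double knockout. In the other 3 pairs they correlated at 0.0126 to 0.0461.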

Additional observations from a re-analysis of the deposited data

Results flagged for a closer look

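The second Grn probe set, with the suffix _r, differed in opposite directions with the same label on different backgrounds. Its log2 difference was -0.664 between the Terc knockout and wild type and 1.5 between the double knockout and the arrays labelled Ku86 knockout. It was -1.37 between the arrays labelled Ku86 knockout and wild type and 0.792 between the double knockout and the Terc knockout. In each of these 4 comparisons the 2 groups did not overlap, as was the case in the same direction for 12.2%, 15.5%, 13.7% and 15.4% of all tested probe sets, and none of the 4 passed (limma adjusted p = 0.703, 0.9995, 0.802 and 0.990). The difference itself was tested as the interaction, 2.17 ± 0.657 (SE), and did not pass (limma adjusted p = 0.875). The other Grn probe set had an interaction of -0.27 ± 0.750 (SE, limma adjusted p = 0.961), whose sign turned after median centring.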

How the results depend on the processing

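Limma called 0 member probe sets in every comparison under each of the 16 other settings and in a fit of the scan day 2 arrays, which was chosen after seeing the data. Tpp1 was left out by the filter on low values in the 2 fits without a double knockout array. Of the log2 differences recomputed under these settings, the following changed sign, and none of them passed the threshold under any setting. After median centring of each array these were the second Grn probe set in the double knockout (-0.139), Cst9 in the Terc knockout (-0.0425), Tpp1 in the Ku86 knockout (-0.208), Kng1 (-0.0336) and Atp6v1b2 (-0.0807) in the double knockout, and the interaction of the first Grn probe set (0.0259). After quantile normalization they were the second Grn probe set (-0.0723) and Tpp1 in the Ku86 knockout (-0.285). Tpp1 also turned with the higher floor, to 0.0737 in the Terc knockout and -0.0512 in the Ku86 knockout, and in the latter to -0.605 with scan day as a block and -0.830 within scan day 2, where Atp6v1b2 turned to -0.0068. With single arrays left out, the ranges that crossed 0 ran from -0.0014 to 1.10 for Ctsl in the Terc knockout, -0.53 to 0.79 for Ctsl between the Ku86 and Terc knockouts, and -0.71 to 0.182 for Ctsb in the Ku86 knockout. They ran from -0.867 to 0.807 and from -0.634 to 0.684 for Tpp1 in the Terc and Ku86 knockouts, and from -0.12 to 0.688 for the dimmer Cst3 probe set and -0.61 to 1.076 for Kng1 in the double knockout. For the first Grn probe set they ran from -0.14 to 1.36 in the Ku86 knockout and from -1.02 to 0.475 for the interaction. The cause was not tested. The median of all tested probe sets against wild type was 0.107, 0.0954 and 0.0754 in the Terc, Ku86 and double knockouts, and -0.226, -0.138 and -0.191 after median centring. With the experiment number as a replicate block 0 member probe sets were called in each comparison. With 2 arrays a genotype, dim probe sets such as Tpp1 and Ctss have wide intervals, and those at the floor have no order.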
